A study of Mus musculus with 5 samples.

Results

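Zscan4c, Zscan4d, Zscan4f, Tcstv1, Tcstv3 and Zfp352 are 6 genes that mouse embryos express at the two-cell stage and that mouse embryonic stem (mES) cells express when they pass through a state resembling it. They were taken by symbol, whatever their level, out of the 55147 gene symbols to which the deposited transcript values summed with the GENCODE M21 annotation. RNA of E14Tg2a mES cells had been sequenced to ask what the loss of C3G, the guanine nucleotide exchange factor encoded by Rapgef1, does to these cells. WT samples, 3 in number, were the parental cells, and the 2 C3G KO samples had a C3G-/- genotype, made by knocking an EF1α-puromycin cassette into Rapgef1 in place of 5′ coding exons. The groups shared the line and no other agent is given in the labels, but the KO cells had also gone through selection in puromycin and clonal growth, and the labels do not say whether both KO samples came from a single clone. The study calls its 3 WT and 2 C3G null samples independent without saying in what way. Nothing in the labels ties a sample to a separate culture, so p-values measure only the spread between these samples.

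As background, the two-cell-like state is a rare and passing state of mES cells in which genes of the first zygotic transcription, among them the Zscan4 genes and transcripts of MERVL retroviral elements, are switched on together. Zscan4 proteins carry a SCAN domain and zinc fingers and are known for telomere lengthening by recombination and for genome stability in mES cells. The Tcstv genes encode small proteins of the two-cell stage that have been tied to telomere elongation, and Zfp352 encodes a zinc finger protein. The transcription factor Dux and the proteins Dppa2 and Dppa4 act upstream of this programme, and chromatin repressors such as Trim28, Setdb1 and Chaf1a hold it back.

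Zscan4c (ENSMUSG00000054272) lies on chromosome 7 of GRCm38 from 11005745 to 11010547 on the plus strand, Zscan4d (ENSMUSG00000090714) from 11161374 to 11166159 on the minus strand and Zscan4f (ENSMUSG00000070828) from 11397915 to 11402318 on the plus strand. They belong to a cluster of 9 annotated Zscan4 genes that runs from 10794242 to 11614112. Tcstv1 (ENSMUSG00000096284) lies on chromosome 13 from 119893388 to 119894785 on the minus strand, and Tcstv3 (ENSMUSG00000095821) on the same chromosome from 120316878 to 120318178 on the plus strand. Zfp352 (ENSMUSG00000070902) lies on chromosome 4 from 90218820 to 90225702 on the plus strand.

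The upstream sequences of the 3 Zscan4 members are shown because they are nearly the same, so that the genes can be told apart by few bases. Each stretch of 200 bases is from RefSeq (GRCm38.p6), written 5′ to 3′ on the strand of the gene, with the 7 positions at which the members differ in capitals. They lie at chr7:11005506-11005705 on the plus strand, ending 39 bases before the GENCODE start of Zscan4c, at chr7:11166199-11166398 on the minus strand, ending 39 bases before that of Zscan4d, and at chr7:11397699-11397898 on the plus strand, ending 16 bases before that of Zscan4f.
Zscan4c: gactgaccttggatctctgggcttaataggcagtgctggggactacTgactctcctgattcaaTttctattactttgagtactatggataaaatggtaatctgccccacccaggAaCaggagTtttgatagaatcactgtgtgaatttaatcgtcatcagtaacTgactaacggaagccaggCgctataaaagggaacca
Zscan4d: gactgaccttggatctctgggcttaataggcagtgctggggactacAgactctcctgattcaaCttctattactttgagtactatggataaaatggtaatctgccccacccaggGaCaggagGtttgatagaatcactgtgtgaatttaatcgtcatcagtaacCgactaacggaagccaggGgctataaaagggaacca
Zscan4f: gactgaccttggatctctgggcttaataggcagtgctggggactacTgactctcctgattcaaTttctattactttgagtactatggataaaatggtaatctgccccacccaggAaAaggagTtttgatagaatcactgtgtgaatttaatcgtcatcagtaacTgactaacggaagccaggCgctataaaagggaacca
All 3 stretches hold the letters TATAAA near their 3′ end. In the 300-base windows that RefSeq coordinates give around gene starts, these letters were present on either strand in Zscan4b, Zscan4c, Zscan4d and Zscan4f among the genes that have such a window and in 13.6% of 32851 promoters, and not in the window of Zfp352. Tcstv1 and Tcstv3 were not searched, since the table used has no window for them. The letters GATTNAATC, which resemble the site of Dux, occurred in 0.268% of all promoters and in none of the windows of Zscan4c, Zscan4d, Zscan4f and Zfp352, and TGCACAC, which resembles the site of Zscan4, in 4.40% and in none of these 4 windows. These are matches of letters alone, and the data do not measure binding.

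The coding sequences are nearly the same too. How reads can be split between the copies depends on likeness over the whole transcript. The first 90 coding bases of the 3 members, from GENCODE M21, are shown with their 3 differing positions in capitals.
Zscan4c: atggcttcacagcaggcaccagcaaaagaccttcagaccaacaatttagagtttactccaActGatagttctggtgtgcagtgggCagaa
Zscan4d: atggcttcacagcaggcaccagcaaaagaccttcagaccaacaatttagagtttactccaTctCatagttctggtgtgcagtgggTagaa
Zscan4f: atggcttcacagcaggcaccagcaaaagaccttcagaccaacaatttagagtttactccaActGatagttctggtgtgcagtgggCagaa
Over the whole coding sequence of 1518 bases, Zscan4c and Zscan4f differed at 6 positions (99.6% identity), while Zscan4d differed from each of them at 35 positions (97.69% identity). Among all stretches of 100 bases of its transcript, 27.2% of Zscan4c, 70.4% of Zscan4d and 10.5% of the longer Zscan4f transcript (ENSMUST00000145237) were found in no other gene. Leaving aside the Zscan4 family itself, these percentages were 97.3% for Zscan4c and 96.6% for Zscan4f, and every stretch of Zscan4d was unique to the family. Values of a single Zscan4 copy are therefore uncertain, that of Zscan4d less so, and the family was also measured as the sum of its 9 genes. Tcstv1 and Tcstv3 differed at 27 of 507 aligned coding bases, with 92.2% to 95.9% of stretches found in no other gene, and Zfp352 was all but unique (99.1% and 99.4% for its 2 transcripts).

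The values are TPM, in which the reads of a transcript are divided by its length and every sample is brought to one common total. They keep no read numbers, so depth and counting error are unknown and the number of samples limits the precision. The share of TPM held by protein-coding genes was 28.8% to 31.8% in WT and 18.6% to 26.0% in C3G KO samples, and that of small RNAs 63.2% to 67.6% and 69.8% to 78.5%, so each comparison was run as deposited and again with median-of-ratios scaling, which divides a sample by the median ratio of its genes to their mean over samples. Levels are as deposited unless called scaled. Among the 33039 genes above 0 in any sample, the median log2 fold change was -0.13 as deposited and -0.0043 after scaling. For the 12518 of them with at least 1 TPM in at least 2 samples it was -0.55 and 0.0052. Rapgef1 had 11.56, 10.31 and 9.64 TPM in WT and 3.92 and 5.55 TPM in C3G KO samples. Both KO values lay below all WT values, and the log2 fold change was -1.02 as deposited (adjusted p = 0.0406, limma) and -0.41 after scaling (adjusted p = 0.0129, limma), and part of the gene is still transcribed in these cells. The ES cell markers Pou5f1, Nanog, Sox2, Zfp42, Esrrb and Utf1 summed to 739 to 774 TPM in WT and 440 to 646 TPM in C3G KO samples, but after scaling to 580 to 669 in WT and 711 to 713 in KO samples, so their direction reversed with the scaling. All 6 had a log2 fold change above 0 after scaling, and none of the 6 passed the test on either scale (2 on each at an unadjusted p under 0.05, limma).

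The 3 Zscan4 members were lower in C3G KO than in WT mES cells, while Tcstv1, Tcstv3 and Zfp352 were barely detected and did not pass the test in either direction. In WT samples 1, 2 and 3 Zscan4c measured 4.53, 4.97 and 4.43 TPM, and in C3G KO samples 1 and 2 it measured 1.22 and 1.94 TPM. Zscan4d measured 2.22, 2.41 and 2.41 TPM in WT and 0.52 and 0.71 TPM in C3G KO samples. Zscan4f, the copy with the highest level, measured 10.04, 12.13 and 10.74 TPM in WT and 2.63 and 3.27 TPM in C3G KO samples. For each of these genes both KO samples lay well below all WT samples, and the WT samples lay close together. Such a lack of overlap was common, found in 46.9% of all tested genes and in 75.7% of those with at least 1 TPM in at least 2 samples. In mean TPM the WT level was 2.94 times the KO level for Zscan4c, 3.82 times for Zscan4d and 3.72 times for Zscan4f.

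**Figure D1:**
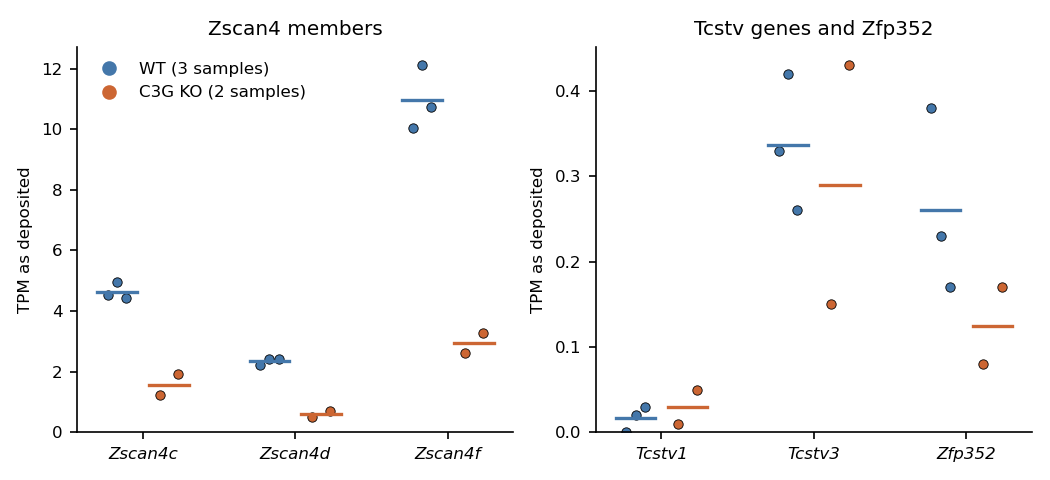
TPM as deposited of the 6 genes in each sample, with Zscan4c, Zscan4d and Zscan4f on the left and Tcstv1, Tcstv3 and Zfp352 on the right on a smaller axis. Points are samples (WT, 3; C3G KO, 2) and horizontal lines are group means. The KO points of the Zscan4 genes lie between 0.52 and 3.27 TPM, below the WT points of the same gene, whereas the groups overlap for the other genes, all of which lie below 0.5 TPM.

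The log2 fold changes, taken on log2(TPM + 1), which understates the change of low genes, were -1.14 for Zscan4c (standard error 0.178, adjusted p = 0.0301, limma), -1.05 for Zscan4d (0.146, adjusted p = 0.0262, limma) and -1.60 for Zscan4f (0.166, adjusted p = 0.0182, limma). These adjusted p-values are over all genes. With 3 of 6 members lower and none higher at an adjusted p under 0.05, the background was 6.39% of all tested genes lower and 0.291% higher. Among the 12518 genes with at least 1 TPM in at least 2 samples, a filter that 3 of the 6 members pass, the Zscan4 genes, 12.6% were lower, and 5.65%, 7.62% and 1.46% had a log2 fold change as low as that of Zscan4c, Zscan4d and Zscan4f.

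Scaling reduced the differences and did not remove them. After scaling, Zscan4c measured 3.39, 4.07 and 4.01 in WT and 1.97 and 2.14 in C3G KO samples, Zscan4d 1.66, 1.98 and 2.18 against 0.841 and 0.784, and Zscan4f 7.52, 9.94 and 9.73 against 4.25 and 3.61. The groups did not overlap for any of them. Both KO samples also lay below all WT samples in 20.9% of all tested genes and in 29.3% of the expressed genes. The log2 fold changes of Zscan4c, Zscan4d and Zscan4f were -0.66 (standard error 0.0905, adjusted p = 0.0154, limma), -0.69 (0.103, adjusted p = 0.0184, limma) and -1.02 (0.134, adjusted p = 0.0137, limma). On this scale 5.74% of all tested genes were lower and 4.33% higher, again with 3 of 6 members lower and none higher. Of the 12518 expressed genes, 11.7% were lower, and 5.42%, 4.92% and 1.89% had a log2 fold change as low as that of Zscan4c, Zscan4d and Zscan4f.

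Summed over its 9 genes, the Zscan4 family measured 35.03, 37.58 and 33.83 TPM in WT samples and 9.05 and 12.82 TPM in C3G KO samples. That is 35.5 ± 1.92 TPM (SD, n = 3) against 10.9 ± 2.67 TPM (SD, n = 2), and the gap between the groups is larger than the spread within either. The sum changed by -1.63 on the log2 scale (standard error 0.192, adjusted p = 0.0206, limma). After scaling the sums were 26.2, 30.8 and 30.6 in WT and 14.6 and 14.2 in C3G KO samples, a WT level 2.03 times the KO level and a log2 difference of -0.97 (standard error 0.0851, adjusted p = 0.00500, limma). An exact two-sided permutation test of the mean gave p = 0.2 on both scales, the smallest p that 10 splits of 5 samples allow.

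The direction held when any sample was left out, but the call held only in some of these fits, which have fewer samples to estimate the spread of every gene. As deposited, the adjusted p of the Zscan4 sum (limma) was 0.124 without WT 1, 0.183 without WT 2 and 0.0999 without WT 3. After scaling it was 0.0406 without WT 1, 0.0713 without WT 2 and 0.0537 without WT 3. Fits without C3G KO 1 or C3G KO 2 leave 1 KO sample, and gave log2 fold changes of -1.40 and -1.86 as deposited and -0.99 and -0.95 after scaling. The log2 fold change of the sum stayed between -1.86 and -1.40 as deposited and between -1.04 and -0.93 after scaling. In bulk RNA, fewer cells in the two-cell-like state and less Zscan4 RNA in each of them cannot be told apart.

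**Figure D2:**
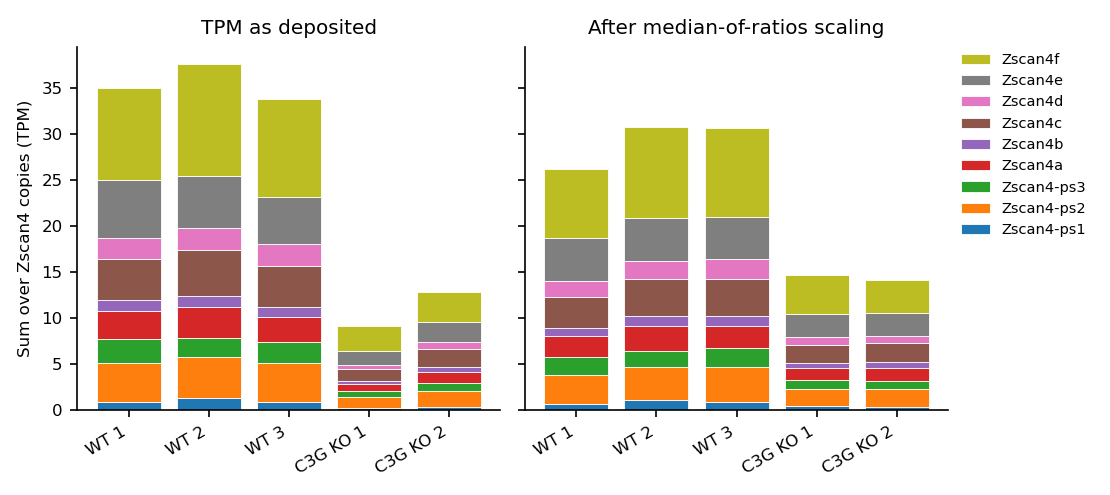
Sum of TPM over the 9 Zscan4 genes in each sample, as deposited on the left and after median-of-ratios scaling on the right, with each gene a segment of the bar. WT sums lie between 33.83 and 37.58 TPM as deposited and C3G KO sums at 9.05 and 12.82 TPM, and the segments keep similar proportions.

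The other 6 genes of the cluster moved with the members. Zscan4e measured 6.36, 5.68 and 5.04 TPM in WT and 1.52 and 2.24 TPM in C3G KO samples, with a log2 fold change of -1.22 as deposited (adjusted p = 0.0285, limma) and -0.71 after scaling (adjusted p = 0.00431, limma). Zscan4-ps2, annotated as protein coding despite its name, measured 4.22, 4.42 and 4.26 TPM in WT and 1.14 and 1.76 TPM in C3G KO samples. Zscan4a, annotated as an unprocessed pseudogene, measured 3.03, 3.33 and 2.72 TPM against 0.81 and 1.23 TPM, and Zscan4-ps3 2.63, 2.14 and 2.23 TPM against 0.62 and 0.85 TPM. These 4 passed the test on both scales. Zscan4b (1.18, 1.23 and 1.13 TPM against 0.37 and 0.57 TPM) and Zscan4-ps1 (0.82, 1.27 and 0.87 TPM against 0.22 and 0.25 TPM) did not, with adjusted p-values from limma of 0.0664 and 0.0528 as deposited and 0.106 and 0.0821 after scaling. In all, 7 of 9 Zscan4 genes were lower on each scale, beside the 6.39% and 5.74% of all genes given above. Of the 9, 8 reached 1 TPM in at least 2 samples, and of all such genes 12.6% were lower as deposited and 11.7% after scaling. In 9 of 9 both KO samples lay below all WT samples. The same absence of overlap was found in 46.9% of all tested genes as deposited and 20.9% after scaling, and in 75.7% and 29.3% of the genes that reach 1 TPM in at least 2 samples. The count of 7 fell to 0 as deposited without WT 1, WT 2, WT 3 or C3G KO 1, and after scaling to 0 without WT 2, 1 without WT 3, C3G KO 1 or C3G KO 2 and 4 without WT 1. Because the copies share most of their sequence, these are not 9 independent measurements.

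**Figure D3:**
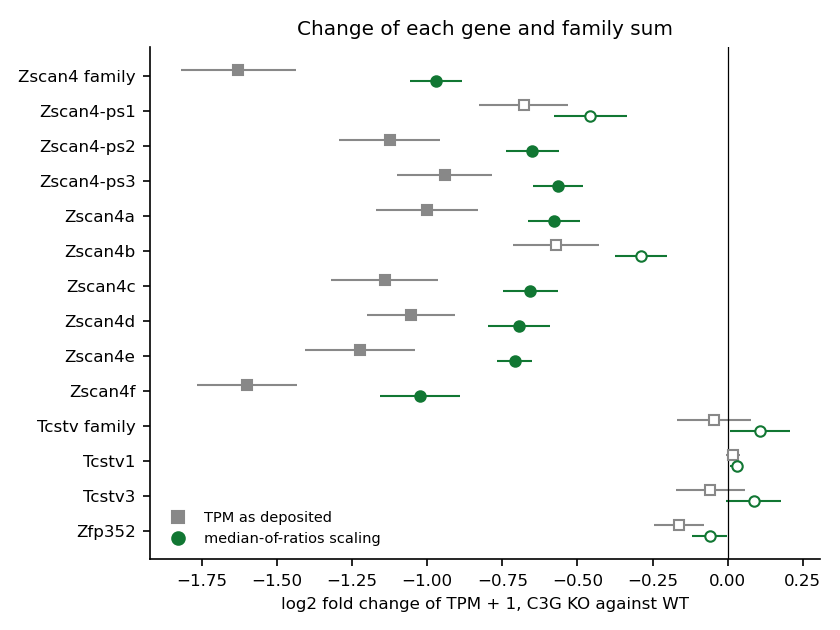
Log2 fold change of TPM + 1 in C3G KO against WT, with standard errors as bars, for the Zscan4 sum, the 9 Zscan4 genes, the Tcstv sum, Tcstv1, Tcstv3 and Zfp352. Grey squares are TPM as deposited and green circles are scaled values, filled where the adjusted p from limma is under 0.05. All Zscan4 genes lie left of 0 on both scales, from -1.60 to -0.57 as deposited and from -1.02 to -0.29 after scaling, while the Tcstv genes and Zfp352 lie close to 0.

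In WT cells the copies ranked Zscan4f (mean 11.0 TPM), Zscan4e (5.69), Zscan4c (4.64), Zscan4-ps2 (4.30), Zscan4a (3.03), Zscan4d (2.35), Zscan4-ps3 (2.33), Zscan4b (1.18) and Zscan4-ps1 (0.987), a comparison per length of transcript. The WT values of Zscan4d and Zscan4-ps3 overlapped, as did those of Zscan4b and Zscan4-ps1, so the order within each pair is not settled. The lowest WT value of Zscan4c (4.43 TPM) and the highest of Zscan4-ps2 (4.42 TPM) nearly met. The whole order also depends on how reads were split between the near-identical copies, which is uncertain. As shares of the family sum, which do not depend on the scaling, Zscan4f held 28.7%, 32.3% and 31.8% in WT and 29.1% and 25.5% in C3G KO samples. Zscan4c held 12.9%, 13.2% and 13.1% in WT and 13.5% and 15.1% in KO samples, and Zscan4d 6.34%, 6.41% and 7.12% in WT and 5.75% and 5.54% in KO samples. The share of Zscan4f overlapped between the groups, that of Zscan4c was slightly higher in both KO samples and that of Zscan4d slightly lower. No mean share moved by more than the 3.61 percentage points by which that of Zscan4f fell.

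At the level of transcripts, Zscan4f was measured as a longer form of 1829 bases (ENSMUST00000145237) with 8.01, 9.35 and 7.73 TPM in WT and 2.03 and 2.67 TPM in C3G KO samples, and a short form of 521 bases (ENSMUST00000141491) with 2.03, 2.78 and 3.01 TPM in WT and 0.60 and 0.60 TPM in KO samples. Both forms were lower in the KO samples as deposited, without overlap, and were not compared after scaling. Both KO samples also lay below all WT samples in 75.7% of genes with at least 1 TPM in at least 2 samples. Only 10.5% of the stretches of the longer form and 45.7% of those of the short form were found in no other gene, so these values are uncertain. Zscan4c and Zscan4d each had a single annotated transcript. Zscan4b and Zscan4e each had a further transcript that was listed at 0 in all 5 samples.

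Tcstv1 was listed at 0, 0.02 and 0.03 TPM in WT and at 0.01 and 0.05 TPM in C3G KO samples, close to the smallest value that the 2 decimals of the table can hold. Tcstv3 measured 0.33, 0.42 and 0.26 TPM in WT and 0.15 and 0.43 TPM in C3G KO samples, and the lowest and the highest of these 5 values both belong to the KO group. Its 2 transcripts parted between the KO samples, with ENSMUST00000178349 at 0.01 and 0.32 TPM and ENSMUST00000223967 at 0.14 and 0.11 TPM in C3G KO 1 and 2. The log2 fold change of Tcstv3 was -0.058 as deposited (standard error 0.115, adjusted p = 0.735, limma) and 0.087 after scaling (0.0911, adjusted p = 0.624, limma), and that of Tcstv1 was 0.019 (0.0233, adjusted p = 0.591, limma) and 0.030 (0.0221, adjusted p = 0.484, limma). The sum of both genes was 0.33, 0.44 and 0.29 TPM in WT and 0.16 and 0.48 TPM in KO samples. Its log2 fold change was -0.045 as deposited (standard error 0.124, adjusted p = 0.800, limma) and 0.11 after scaling (0.10, adjusted p = 0.599, limma), so its sign depends on the scaling.

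Zfp352 measured 0.38, 0.23 and 0.17 TPM in WT and 0.08 and 0.17 TPM in C3G KO samples. WT 1 lay highest, and C3G KO 2 equalled WT 3. The log2 fold change was -0.16 as deposited (standard error 0.0832, adjusted p = 0.225, limma) and -0.061 after scaling (0.0579, adjusted p = 0.604, limma). Its transcript ENSMUST00000080541 had 0.24, 0.04 and 0 TPM in WT and 0 and 0.17 TPM in KO samples, and ENSMUST00000107129 had 0.14, 0.19 and 0.17 TPM in WT and 0.08 and 0 TPM in KO samples, so the split between them varied from sample to sample. At such levels a fold change on log2(TPM + 1) is close to 0 by construction, and a change in Zfp352, Tcstv1 or Tcstv3 was not detectable here rather than shown to be absent. In WT cells the samples of Tcstv3 (mean 0.337 TPM) and Zfp352 (mean 0.260 TPM) overlapped, and both genes lay above Tcstv1 (mean 0.0167 TPM).

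A list of 40 other genes known from the two-cell-like state was compared in the same way, of which 37 were above 0 in some sample and 8 reached 1 TPM in at least 2 samples. As deposited, 5 of the 37 were lower and 0 higher (6.39% and 0.291% of all genes), and after scaling 6 were lower and 0 higher (5.74% and 4.33%). All the genes called were among the 8. Of all genes that reach 1 TPM in at least 2 samples, 12.6% were lower as deposited and 11.7% after scaling. At an unadjusted p under 0.05 from limma, 24 and 10 of the 37 differed, while 33.4% and 25% of all genes did, which is near the share of the list after scaling. The median log2 fold change was -0.22 as deposited, against -0.13 over all genes, and -0.091 after scaling, against -0.0043. Both KO samples lay below all WT samples in 30 of 37 genes as deposited and in 16 after scaling, and above them in 0 and 2. Over all tested genes both KO samples lay below in 46.9% and 20.9% and above in 2.55% and 18.6%.

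Gm5662, Gm2016, Gm2022, Gm8300 and Gm4027, which passed on both scales, lie within a stretch of chromosome 12 from 87514316 to 88274500 and belong to a multicopy group related to the translation factor Eif1a. Gm5662 measured 6.70, 6.81 and 5.91 TPM in WT and 1.74 and 2.15 TPM in C3G KO samples, with a log2 fold change of -1.34 as deposited (adjusted p = 0.0204, limma) and -0.82 after scaling (adjusted p = 0.00710, limma). Gm2016 measured 6.5, 6.4 and 6.15 TPM in WT and 1.63 and 2.64 TPM in KO samples (-1.25 and -0.72, adjusted p = 0.0282 and 0.00834, limma). Gm2022 measured 2.49, 2.48 and 2.43 TPM in WT and 0.56 in both KO samples (-1.15 and -0.79, adjusted p = 0.0206 and 0.0149, limma). For each of them all WT samples lay above both KO samples. Between 8.62% (Gm4027) and 89.2% (Gm8300) of the 100-base stretches of these 5 genes were found in no other gene, so their single values are uncertain as well.

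Usp17lc, a deubiquitinase gene, was the sixth to pass after scaling (1.36, 1.23 and 1.03 TPM in WT and 0.30 and 0.51 TPM in KO samples, log2 fold change -0.38, adjusted p = 0.0497, limma) and did not pass as deposited (adjusted p = 0.0605, limma). Tdpoz3, Tmem92, Sp110 and Arg2, which fall outside the rule for named genes and are given as examples of low members, lay under 1 TPM in all samples. They did not pass on either scale. Without WT 1, WT 2, WT 3 or C3G KO 1 the count of lower genes in the list fell to 0 as deposited, and after scaling it was 0 without WT 2, WT 3 or C3G KO 2 and 1 without WT 1 or C3G KO 1.

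Of the 5 activators listed, none passed the test on either scale (2 as deposited and 0 after scaling at an unadjusted p under 0.05, limma). Duxf3, the annotated copy of Dux, was hardly detected, at 0.16, 0.19 and 0.14 TPM in WT and 0.05 and 0.15 TPM in C3G KO samples, with adjusted p = 0.282 as deposited and 0.848 after scaling (limma). Dppa2 measured 30.90, 31.09 and 29.52 TPM in WT and 17.24 and 26.65 TPM in KO samples, and Dppa4 43.08, 41.53 and 38.26 TPM against 23.00 and 30.01 TPM. Both lay lower in the KO samples as deposited, but their log2 fold changes after scaling were 0.18 and 0.059 (adjusted p = 0.216 and 0.669, limma), so the direction depends on the scaling. The same was true of Nelfa (-0.63 as deposited and 0.010 after scaling) and of the transcription factor Tbx3 (-0.54 and 0.053).

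Of 36 repressors of the state, all at 1 TPM or more in at least 2 samples, 3 were lower and 0 higher as deposited, and 3 were lower and 2 higher after scaling. That is 8.33% lower on each scale, below the 12.6% and 11.7% of all genes that pass the same filter, of which 0.184% and 8.22% were higher. The median log2 fold change was -0.67 as deposited, against -0.55 over all genes that pass the same filter, and -0.0087 after scaling. Zmym2, a zinc finger protein that binds corepressors, measured 28.37, 26.00 and 23.26 TPM in WT and 8.20 and 13.85 TPM in C3G KO samples, with log2 fold changes of -1.20 (adjusted p = 0.0466, limma) and -0.54 (adjusted p = 0.0134, limma). The histone H3 methyltransferase gene Ehmt2 (22.09, 20.76 and 19.02 TPM against 7.91 and 11.61 TPM) and E2f6 (11.78, 11.32 and 10.52 TPM against 4.58 and 6.62 TPM) were the others that passed on both scales, lower in the KO samples.

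Chaf1b, a subunit of the histone chaperone CAF-1, measured 15, 14.27 and 14.14 TPM in WT and 12.92 and 17.73 TPM in KO samples. It had a log2 fold change of 0.062 as deposited (adjusted p = 0.814, limma) and was higher after scaling, by 0.72 (adjusted p = 0.00700, limma). Cbx1, which encodes a heterochromatin protein, was the other that rose after scaling (0.44, adjusted p = 0.0303, limma), with -0.25 as deposited. Trim28, Setdb1, Kdm1a, Rif1 and Chaf1a had log2 fold changes of -0.83 to -0.69 as deposited and -0.18 to -0.050 after scaling and did not pass on either scale. The DNA demethylase genes Tet1 and Tet2 had log2 fold changes of -0.75 and -0.66 as deposited and, after scaling, of -0.061 and 0.0093 (adjusted p = 0.842 and 0.965, limma). The lower count of the repressors as deposited ranged from 0 (without WT 1, WT 2, WT 3 or C3G KO 1) to 21 (without C3G KO 2), and after scaling it was 1 without WT 1, C3G KO 1 or C3G KO 2 and 0 without WT 2 or WT 3. The higher count after scaling was 1 without WT 3 and 0 without any other single sample.

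**Figure D4:**
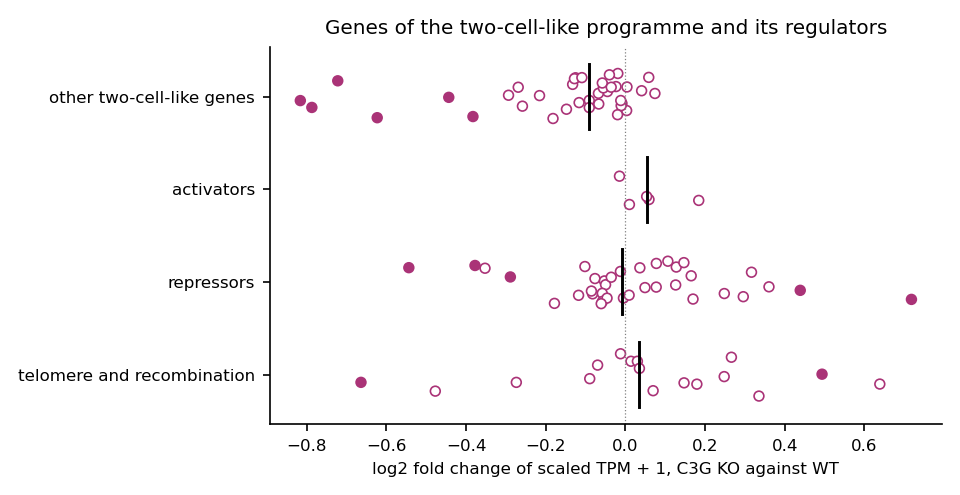
Log2 fold change of scaled TPM + 1 in C3G KO against WT for the genes of 4 lists, 37 other two-cell-like genes, 5 activators, 36 repressors and 17 genes of telomeres and recombination. Each circle is a gene, placed at random within its row, filled where the adjusted p from limma is under 0.05, and vertical bars are medians. The filled circles of the two-cell-like genes all lie left of 0, from -0.82 to -0.38, and those of the repressors lie on both sides.

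Among 17 genes of telomere maintenance and recombination, the process with which Zscan4 is associated, 2 were lower and 0 higher as deposited and 1 was lower and 1 higher after scaling. The lower share was 11.8% and 5.88%, beside 12.6% and 11.7% of expressed genes, so it did not stand above the background. Tinf2, a subunit of the shelterin complex that caps telomeres, measured 15.40, 12.97 and 12.11 TPM in WT and 4.18 and 5.84 TPM in C3G KO samples, with log2 fold changes of -1.28 (adjusted p = 0.0296, limma) and -0.66 (adjusted p = 0.00529, limma). It lies on chromosome 14 at 55674689, and 124 of the 171 expressed genes that start between 40 and 66 Mb of that chromosome were lower after scaling, against 11.7% of all expressed genes. Whether that has a part in the value of Tinf2 was not tested. The chromatin remodeler gene Atrx passed as deposited (-1.16, adjusted p = 0.0444, limma) and not after scaling (-0.48, adjusted p = 0.0624, limma). Dmc1, the meiotic recombinase gene, measured 2.84, 2.42 and 2.20 TPM in WT and 1.98 and 3.03 TPM in KO samples, which overlapped as deposited, and was higher after scaling by 0.49 (adjusted p = 0.0150, limma). Tert, the catalytic subunit of telomerase, had -0.76 and -0.27 and did not pass (adjusted p = 0.0792 and 0.229, limma). The median of the list was -0.53 as deposited and 0.035 after scaling.

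The neighbours of the Zscan4 cluster were mostly silent. Within 500000 bases on either side and between the copies lie 101 other annotated genes, of which 25 were above 0 and 1 reached 1 TPM in at least 2 samples. Of the 25, 0 were lower on either scale (limma, with 2 at an unadjusted p under 0.05 on each scale), against 7 of 9 Zscan4 genes. Gm7789, named after its value was seen, was higher after scaling (log2 fold change 0.53, adjusted p = 0.0115, limma) and not as deposited (0.32, adjusted p = 0.0934, limma). Since nearly all of the neighbours are close to 0 TPM, a fall in them could hardly have been seen.

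Markers of other cell types also differed between the groups, beside 6.39% of all genes lower and 0.291% higher as deposited and 5.74% and 4.33% after scaling. The trophoblast markers Cdx2, Elf5, Eomes, Krt7 and Gata3 summed to 6.91 to 8.89 TPM in WT and 1.62 to 2.56 TPM in C3G KO samples, and 3 of 5 (Krt7, Cdx2 and Gata3) were lower on both scales. The fibroblast markers Col1a1, Col1a2, Col3a1, Pdgfrb and Thy1 summed to 3.98 to 5.78 TPM in WT and 1.04 to 1.48 TPM in KO samples, with 2 of 5 lower as deposited and 3 of 5 after scaling, and Col3a1 listed at 0 in C3G KO 1. The primitive endoderm markers summed to 4.07 to 4.98 TPM in WT and 4.15 to 8.19 TPM in KO samples. Of them, 0 of 6 passed as deposited and 3 of 6 (Pdgfra, Sox17 and Gata6) were higher after scaling. Gata4, Sox7 and Dab2 passed on neither scale, with log2 fold changes of -0.12, -0.13 and 0.22 as deposited and 0.18, 0.0078 and 0.69 after scaling. By qPCR, the study reports the other direction for Sox17 and Gata6, as repressed in C3G null cells. Only 3 of 5 trophoblast, 2 of 5 fibroblast and 1 of 6 primitive endoderm markers reached 1 TPM in at least 2 samples. Sox17 and Gata6 lay under 1 TPM in all samples as deposited. Marker RNA at such levels in bulk samples does not show that cells of these types were present. Any part of such cells in the difference in Zscan4 was not tested.

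The genes whose level followed that of the Zscan4 sum most closely over the 5 samples, on log2 scaled TPM + 1, were Anxa5 (Pearson r = 0.9995), Tfpi (0.9994), Mcrip1 (0.9993), Aldh4a1 (0.9991) and Rbm43 (0.9991). Anxa5 measured 7.83, 8.25 and 7.25 TPM in WT and 2.10 and 3.02 TPM in C3G KO samples. Of 11961 genes compared, 205 had an r above 0.99, as any gene that separates the groups can reach over so few samples, so the likeness describes the group difference and little more. For Zfp352 the 5 closest genes were Zfp318 (0.9979), Tnrc18 (0.9970), Ddx58 (0.9947), Gpatch2 (0.9946) and Pnpla2 (0.9912), and 6 genes had an r above 0.99. Zfp352 lay at only 0.08 to 0.38 TPM, so these are matches to values near the floor and carry little meaning.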

How the data were processed

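RNA of 3 WT and 2 C3G KO samples of E14Tg2a mES cells had been sequenced as paired-end reads. The deposited table holds TPM per Ensembl transcript, rounded to 2 decimals. The submitters' processing notes name bcl2fastq 2.20, FastQC 0.11.7, STAR 2.5.1b and RSEM 1.2.31 and the build GRCm38, with no roles given. The authors' TPM came without read numbers, so depth is unknown, and how reads of near-identical copies were shared out is not given in the sources used here. The table's own total was 999998 to 1000001 in each sample.

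Of 142647 transcripts, 141524 were matched to GENCODE M21 and summed by gene symbol, and 1123 were not used. Genes with TPM above 0 in any sample (33039) were tested two-sided on log2(TPM + 1) with limma 3.58.1 (R 4.3.3), its variance prior following the mean level, and p-values were adjusted by Benjamini-Hochberg over all of them, with a threshold of 0.05. Scaling factors came from genes with at least 1 TPM in at least 2 samples and above 0 in all. Fits with the Zscan4 genes summed to 1 row, and likewise the Tcstv genes, had 33030 rows. No 2 samples held identical values, and their pairwise correlation was 0.958 to 0.987. The procedure was also run on simulated TPM in which all KO values were lowered by a common factor. The simulation had no shift in the share of small RNAs, so it does not show how the procedure fares on these samples. Tables were made with Python 3.11.15 and pandas 2.3.3.

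The members, gene lists and tests were chosen with earlier results of these data known. Genes are named by a rule, which takes the 6 members, all Zscan4 and Tcstv genes, a set of known regulators, up to 3 largest rises and falls past the threshold per list after scaling, Rapgef1, and the 5 genes most like the Zscan4 sum and Zfp352. Gm8300, Gm4027, Usp17lc, Atrx, Tert, Gm7789 and genes given as examples of low members were named beyond it, after their values were seen. The alternatives were other pseudocounts, a filter on low TPM, other scalings, no trend, a length and GC correction, a replicate block and each sample left out. The length and GC correction on filtered genes and the log2 ratio of mean TPM without a pseudocount were added after seeing the data. The study's own measurements other than RNA sequencing were not used here, beyond the reported qPCR direction of Sox17 and Gata6.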

Additional observations from a re-analysis of the deposited data

How the results depend on the processing

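The Zscan4 sum was lower in C3G KO samples under every alternative run, with a log2 fold change of -1.86 to -1.05 from TPM as deposited and -1.04 to -0.82 after scaling. The call was lost with the replicate block (-1.66, adjusted p = 0.307, and -0.94, adjusted p = 0.184, limma), where 0 members and 0 of all genes passed (5194 and 6753 genes at an unadjusted p under 0.05), and in some of the fits that leave out a sample, which gave -1.86 to -1.40 as deposited and -1.04 to -0.93 after scaling, with 0 to 3 and 0 to 2 members called. With the replicate block and the length and GC correction together, 0 members passed after scaling. Whether the replicate numbers pair the samples cannot be told. The correlation of deviations from the group means was -0.18 for number 1 and 0.181 for number 2. With only 2 KO samples these deviations are equal and opposite, so a WT sample that goes with C3G KO 1 goes against C3G KO 2 by construction. All other alternatives called the same number of members, 3.

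For the Tcstv sum the sign turned, from -0.045 as deposited, to 0.077 with the length and GC correction, 0.15 with quantile normalization, 0.063 with the block and the correction and 0.054 with protein-coding scaling, and it ran from -0.22 to 0.13 without a single sample (0.00046 without WT 2). After scaling it turned to -0.035 without C3G KO 2, with a range of -0.035 to 0.25. Tcstv3 turned to 0.060, 0.12, 0.038 and 0.036 under the same 4 alternatives, to 0.099 without C3G KO 1 and, after scaling, to -0.037 without C3G KO 2 (0.21 without C3G KO 1). Tcstv1 turned to -0.0094 without C3G KO 2 (0.047 without C3G KO 1), and Zfp352 to 0.083 with the correction and 0.063 with the block and the correction. None of these passed the test. The causes were not tested.

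Over all genes, the lower and higher calls as deposited (2111 and 96) became 7109 and 181 with the filter on low TPM, 3605 and 6760 with the length and GC correction, 2969 and 687 with protein-coding scaling and 1763 and 1438 with quantile normalization, and after scaling they were 1895 and 1430. Without a single sample the lower count as deposited was 0 (any WT sample), 54 (C3G KO 1) or 6130 (C3G KO 2), and after scaling 0 (WT 2) to 501 (WT 1), so the background shares move as well. Repressors lower as deposited numbered 24 with the filter and 0 without the trend, against 3, and other two-cell-like genes lower numbered 8 under both, against 5. The filter leaves Tcstv1, Tcstv3 and Zfp352 untested. Without a C3G KO sample the remaining one was assumed to vary like WT. Depth could not be assessed.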
